A study of Mus musculus with 2 samples.

Results

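The core circadian clock was described here by 10 genes of the 32285 counted in nuclei of mouse epididymal white adipose tissue (WAT). The genes were chosen by their measured level per class and library in this same study, where the arms of the clock differed in opposite directions, so every value below that sets HF-HHT against HF-PBS is a description and not a test. Of the 10 genes, 3 belong to the activator arm (Arntl, Clock and Npas2), and 7 belong to the arm that the activators drive (Per1, Per2, Per3, Nr1d1, Nr1d2, Dbp and Ciart).

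The clock is a feedback loop of transcription. Arntl (also called Bmal1) pairs with Clock or its relative Npas2, and the pair binds E-box sequences to switch on the Per, Nr1d, Dbp and Ciart genes. The Per, Nr1d and Ciart products then hold the activators down, while Dbp passes the rhythm on to other genes. In fat, as in most tissues, the activator Arntl and the targets Dbp and Nr1d1 peak at opposite times of day.

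The mice were males that started a high-fat diet (HF) at 8 weeks of age and, after 6 weeks, were kept on it for 8 more weeks with intraperitoneal injections 3 times a week. The methods name C57BL/6 N and p16-Luc mice for this diet experiment without saying which gave the sequenced tissue. HF-PBS mice received phosphate-buffered saline, and HF-HHT mice received homoharringtonine (HHT), a plant alkaloid that inhibits protein synthesis. Frozen tissue of 3 mice was pooled for each condition and gave 1 single-nucleus library, so there are no replicates, no p-values are given, and treatment, pool and library cannot be told apart. Mice were housed under a light and dark cycle, and no source used here gives the hour at which tissue was collected.

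The HF-PBS library held 76197757 UMIs (unique molecular identifiers, each standing for 1 captured RNA molecule) and the HF-HHT library held 73313558. After filtering, 6663 and 6442 nuclei remained, with medians of 4302 and 3964.5 UMIs per nucleus, and 13 barcodes occurred in both sets. Nuclei were clustered without the clock genes and the classes are named "X-like" from marker genes, for example adipocyte-like nuclei with 12 of 12 markers found and adipocyte progenitor (APC)-like nuclei with 10 of 10. Adipocyte-like nuclei numbered 153 (HF-PBS) and 843 (HF-HHT), APC-like nuclei 751 and 669, and macrophage-like nuclei 3608 and 2242. The make-up of the libraries differed widely: B cell-like nuclei numbered 756 (HF-PBS) and 59 (HF-HHT), whereas 690 epithelial-like, 121 multiciliated epithelial-like and 114 erythroid-like nuclei came from HF-HHT, with 0 of each in HF-PBS. Clock genes were therefore compared within classes, as UMIs of a gene per 1000000 UMIs of the class (CPM), in the 10 classes present in both libraries. A ratio is given as log2 of HF-HHT over HF-PBS with its exact 95% interval, which covers counting error alone, and a gene counts as measured in a class with at least 20 UMIs over both libraries. Where 1 library alone reached that minimum, the filter favoured a ratio towards that library.

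Arntl, the obligate partner of the activator pair, was lower in HF-HHT in every one of the 9 classes where it was measured. In APC-like nuclei it stood at 153 CPM in HF-PBS but at 39.9 CPM in HF-HHT, a log2 ratio of -1.94 (-2.24 to -1.65). In macrophage-like nuclei it stood at 186 and 76.0 CPM, a log2 ratio of -1.29 (-1.40 to -1.18). Adipocyte-like nuclei had 65.5 and 32.0 CPM, a log2 ratio of -1.03 (-1.33 to -0.73). Arntl was thus lower by between 2.05-fold and 3.83-fold in these 3 classes. Mesothelial-like nuclei, the lining of the fat pad, had the lowest ratio, -2.18 (-2.70 to -1.68), and T/NK-like nuclei the one nearest to 0, -0.49 (-0.77 to -0.20), from 216 to 155 CPM. In 7 of the 9 classes Arntl was at least 1.5-fold lower with an interval below 0, and in B cell-like nuclei, with 9 UMIs in HF-HHT, the interval included 0.

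Arntl lies on chromosome 7, from 113207465 to 113314126 on the plus strand of GRCm38. Of the activator genes, Arntl alone held one of the clock motifs looked for in the RefSeq promoter windows (250 bases before to 50 after a start site, build GRCm38.p6). Its second start, chr7:113207261-113207560 on the plus strand, is shown because the window holds the core of a RORE, the element through which Nr1d1 and Nr1d2 repress and Rora activates. Capitals mark TAGGTCA, 30 bases after the start, a string found on either strand in 2.61% of the 32851 windows of the table.
Arntl: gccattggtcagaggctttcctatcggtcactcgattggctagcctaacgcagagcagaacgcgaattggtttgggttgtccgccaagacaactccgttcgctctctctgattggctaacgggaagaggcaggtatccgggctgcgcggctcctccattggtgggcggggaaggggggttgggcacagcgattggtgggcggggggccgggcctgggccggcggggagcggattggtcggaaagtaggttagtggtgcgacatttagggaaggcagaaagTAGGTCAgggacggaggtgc

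Clock, the more constant partner, stayed within 1.5-fold in every class. Its CPM was 163 and 160 in APC-like nuclei, a log2 ratio of -0.03 (-0.20 to 0.14), and 198 and 193 in macrophage-like nuclei, a log2 ratio of -0.04 (-0.11 to 0.04). In adipocyte-like nuclei it was 248 in HF-PBS against 188 in HF-HHT, a log2 ratio of -0.40 (-0.54 to -0.25). Over the 10 classes its log2 ratio ran from -0.40 to 0.30. In adipocyte-like nuclei the median gene was itself higher in HF-HHT, by 0.32 on the log2 scale, and relative to that median Clock stood at -0.72, which is past 1.5-fold.

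Npas2, which stands in for Clock in some tissues, was lower in HF-HHT in each of the 7 classes where it was measured, in 5 of them by at least 1.5-fold with an interval below 0. In macrophage-like nuclei it had 73.7 CPM (1585 UMIs) in HF-PBS against 9.20 CPM (99 UMIs) in HF-HHT, a log2 ratio of -3.00 (-3.31 to -2.71). In adipocyte-like nuclei it had 21.2 and 4.23 CPM, a log2 ratio of -2.32 (-2.98 to -1.67). APC-like nuclei had 95.3 and 53.3 CPM, a log2 ratio of -0.84 (-1.12 to -0.57). Npas2 thus differed 8.01-fold in one class and 1.79-fold in another. Within the macrophage-like class the gene sat in one place: cluster 2 of a finer clustering, led by Mmp12 and Il1rn, held 22.3% of the class's nuclei but 84.3% of its Npas2 UMIs in HF-PBS, and 13.7% of the nuclei and 83.8% of the Npas2 UMIs in HF-HHT. Inside cluster 2 the log2 ratio was -2.06 (-2.40 to -1.74), and with the finer clusters weighted as in HF-PBS the class ratio was -2.17 in place of -3.00.

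The Per genes encode the repressors that close the loop, and their ratios differed in sign. Per3 was higher in HF-HHT in all 7 classes where it was measured. In adipocyte-like nuclei it had 13.6 CPM (27 UMIs) in HF-PBS against 58.7 CPM (583 UMIs) in HF-HHT, a log2 ratio of 2.11 (1.55 to 2.72). In APC-like nuclei it had 18.7 and 59.1 CPM, a log2 ratio of 1.66 (1.29 to 2.04). In macrophage-like nuclei it had 7.07 and 15.0 CPM, a log2 ratio of 1.08 (0.75 to 1.41). Mesothelial-like and endothelial-like nuclei had ratios of 1.88 (1.09 to 2.78) and 1.75 (0.68 to 3.02), while dividing nuclei, on 18 and 13 UMIs, had a ratio of 0.05 (-1.10 to 1.16). Per3 lies inside the longer gene Camta1 on the same strand, so reads could be shared between them. Camta1 had log2 ratios of -0.00 in adipocyte-like, 0.24 in APC-like and -0.11 in macrophage-like nuclei.

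Per2 was at least 1.5-fold higher with an interval above 0 in 2 of 7 classes, the adipocyte-like and the APC-like nuclei. It had 36.3 and 58.7 CPM in adipocyte-like nuclei, a log2 ratio of 0.69 (0.34 to 1.07), which is 0.38, within 1.5-fold, relative to the median gene of the class. It was also within 1.5-fold with every barcode of at least 500 UMIs kept, at 0.46, and with nuclei thinned to 3000 UMIs, at 0.55. In APC-like nuclei it had 20.9 and 53.6 CPM, a log2 ratio of 1.36 (0.99 to 1.74). In macrophage-like nuclei, at 19.1 and 22.2 CPM, the interval included 0.

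Per1, the member of the family that also responds to glucocorticoids and cyclic AMP, was lower in 4 of the 9 classes where it was measured, by at least 1.5-fold with an interval below 0, and higher to that extent in 0 classes. In macrophage-like nuclei it had 43.7 CPM in HF-PBS against 21.9 CPM in HF-HHT, a log2 ratio of -0.99 (-1.21 to -0.79). In T/NK-like nuclei the ratio was -1.33 (-2.40 to -0.38), and in mesothelial-like nuclei -0.74 (-1.26 to -0.22). Adipocyte-like and APC-like nuclei had ratios of -0.16 (-0.52 to 0.21) and -0.13 (-0.53 to 0.26), both within 1.5-fold, and the first turned to 0.21 with nuclei thinned to 3000 UMIs. In macrophage-like nuclei Per1 was the only one of the 7 target genes with a ratio below 0.

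Nr1d1 and Nr1d2 encode REV-ERB alpha and beta, nuclear receptors that repress Arntl. Nr1d1 had 2.65 and 5.21 CPM in macrophage-like nuclei, a log2 ratio of 0.97 (0.41 to 1.53), which was 0.45 and within 1.5-fold once free RNA was subtracted. In mesothelial-like nuclei it had 18.5 and 36.6 CPM, a log2 ratio of 0.98 (0.31 to 1.71). In APC-like nuclei its ratio of 0.62 (0.05 to 1.18) was within 1.5-fold with median-of-ratios scaling (0.45), TMM scaling (0.47), free RNA subtracted (0.49), finer clusters mixed as in HF-PBS (0.54) and every barcode of at least 500 UMIs kept (0.56). In adipocyte-like nuclei, at 14.1 and 17.4 CPM, its ratio of 0.30 (-0.28 to 0.93) was close to the 0.32 of the median gene, and with nuclei thinned to 3000 UMIs it turned to -0.66. Nr1d2 was higher in APC-like nuclei, with 73.8 and 145 CPM and a log2 ratio of 0.97 (0.77 to 1.18). Mesothelial-like nuclei were alike in this, with a ratio of 1.01 (0.67 to 1.37), but in adipocyte-like nuclei, at 100.3 and 113 CPM, Nr1d2 stood at 0.17 (-0.05 to 0.39), which turned to -0.10 with TMM scaling and -0.13 with median-of-ratios scaling. The end of Nr1d1 overlaps Thra on the opposite strand, and Thra had log2 ratios of 0.45 in macrophage-like and -0.02 in mesothelial-like nuclei.

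Dbp, a transcription factor that carries clock output to D-box genes, was sparse, below its level in free RNA in most classes, and higher in HF-HHT in all 4 classes where it was measured. In APC-like, adipocyte-like and mesothelial-like nuclei, the last on 4 and 43 UMIs, Dbp reached the minimum of 20 UMIs through HF-HHT alone. A higher ratio in those classes was thus favoured by the filter. APC-like nuclei held 5 UMIs of Dbp in HF-PBS against 22 in HF-HHT, a log2 ratio of 3.02 (1.58 to 4.78). Macrophage-like nuclei held 29 and 57 UMIs, a log2 ratio of 1.97 (1.30 to 2.67). Adipocyte-like nuclei held 1 and 37 UMIs, a log2 ratio of 2.89 (0.32 to 8.23), so the size of that difference is hardly bounded. Endothelial-like nuclei held 0 and 11 UMIs, and the interval of the log2 ratio began at 0.17. Set against a floor of 3 counts in HF-PBS, the level in HF-HHT was 1.64-fold higher. Dbp overlaps Sphk2 on the opposite strand, and Sphk2 had log2 ratios of 0.10 in APC-like and -1.10 in adipocyte-like nuclei. Ciart, a repressor of the activator pair, was measured in macrophage-like nuclei alone, with 28 and 17 UMIs and a log2 ratio of 0.28 (-0.68 to 1.20), which was past 1.5-fold at a clustering resolution of 1.0 and with nuclei thinned to 3000 UMIs (0.75 under each).

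The promoters of the target genes show which of these motifs each carries in its window. Those of Ciart, Per1, Per3 and Nr1d1 are shown because they hold a match, and no link between motif and ratio was tested. The motifs searched on both strands were the E-box CACGTG, bound by the Arntl pair, its variant CACGTT, the D-box TTATGTAA, bound by Dbp and its relatives, the RORE core TAGGTCA, the cyclic AMP element TGACGTCA and its shorter site TGACG, which the full element contains. These strings occur in 7.15%, 4.68%, 0.938%, 2.61%, 1.79% and 20.8% of all windows, in that order. Windows were found for 9 members (13 windows), and among the rest no match was found for Clock, Npas2, Nr1d2 and Dbp. Capitals mark the motifs in the windows that follow. Ciart, at chr3:95882179-95882478 on the minus strand, holds 3 E-boxes, at 116, 58 and 44 bases before the start. Per1 has 2 starts, and its first window, at chr11:69098699-69098998 on the plus strand, holds an E-box at 166 bases and the shorter cyclic AMP site at 246 bases before the start. Its second window, at chr11:69099902-69100201, holds the shorter cyclic AMP site at 132 bases before the start and is not shown. Per3, at chr4:151044616-151044915 on the minus strand, holds 2 D-boxes, at 205 and 158 bases before the start. Nr1d1, at chr11:98775328-98775627 on the minus strand, holds the E-box variant, read on the other strand, 28 bases before the start. A match is a string of letters and does not show binding.
Ciart: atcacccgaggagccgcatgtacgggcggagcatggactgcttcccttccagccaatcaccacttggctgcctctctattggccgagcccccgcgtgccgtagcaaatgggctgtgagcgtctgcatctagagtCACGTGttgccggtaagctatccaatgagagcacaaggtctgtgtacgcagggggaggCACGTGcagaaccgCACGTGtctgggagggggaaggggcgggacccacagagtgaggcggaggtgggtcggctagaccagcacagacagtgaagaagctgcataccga
Per1: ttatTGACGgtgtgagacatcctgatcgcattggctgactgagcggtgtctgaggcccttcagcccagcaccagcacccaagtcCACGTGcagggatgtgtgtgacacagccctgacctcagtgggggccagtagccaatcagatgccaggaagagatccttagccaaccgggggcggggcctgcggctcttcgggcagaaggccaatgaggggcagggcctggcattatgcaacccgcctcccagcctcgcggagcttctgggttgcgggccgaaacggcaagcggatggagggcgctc
Per3: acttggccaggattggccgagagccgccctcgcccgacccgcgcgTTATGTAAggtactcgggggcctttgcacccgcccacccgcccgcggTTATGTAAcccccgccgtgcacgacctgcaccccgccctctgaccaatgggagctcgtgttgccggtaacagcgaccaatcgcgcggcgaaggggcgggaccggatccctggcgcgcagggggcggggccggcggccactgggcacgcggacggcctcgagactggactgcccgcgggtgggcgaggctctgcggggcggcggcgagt
Nr1d1: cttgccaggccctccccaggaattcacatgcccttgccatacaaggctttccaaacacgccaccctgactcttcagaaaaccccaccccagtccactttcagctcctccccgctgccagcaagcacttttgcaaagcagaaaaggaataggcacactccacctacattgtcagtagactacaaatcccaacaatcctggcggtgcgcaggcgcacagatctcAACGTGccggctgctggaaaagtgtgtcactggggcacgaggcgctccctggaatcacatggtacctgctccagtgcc

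**Figure D1:**
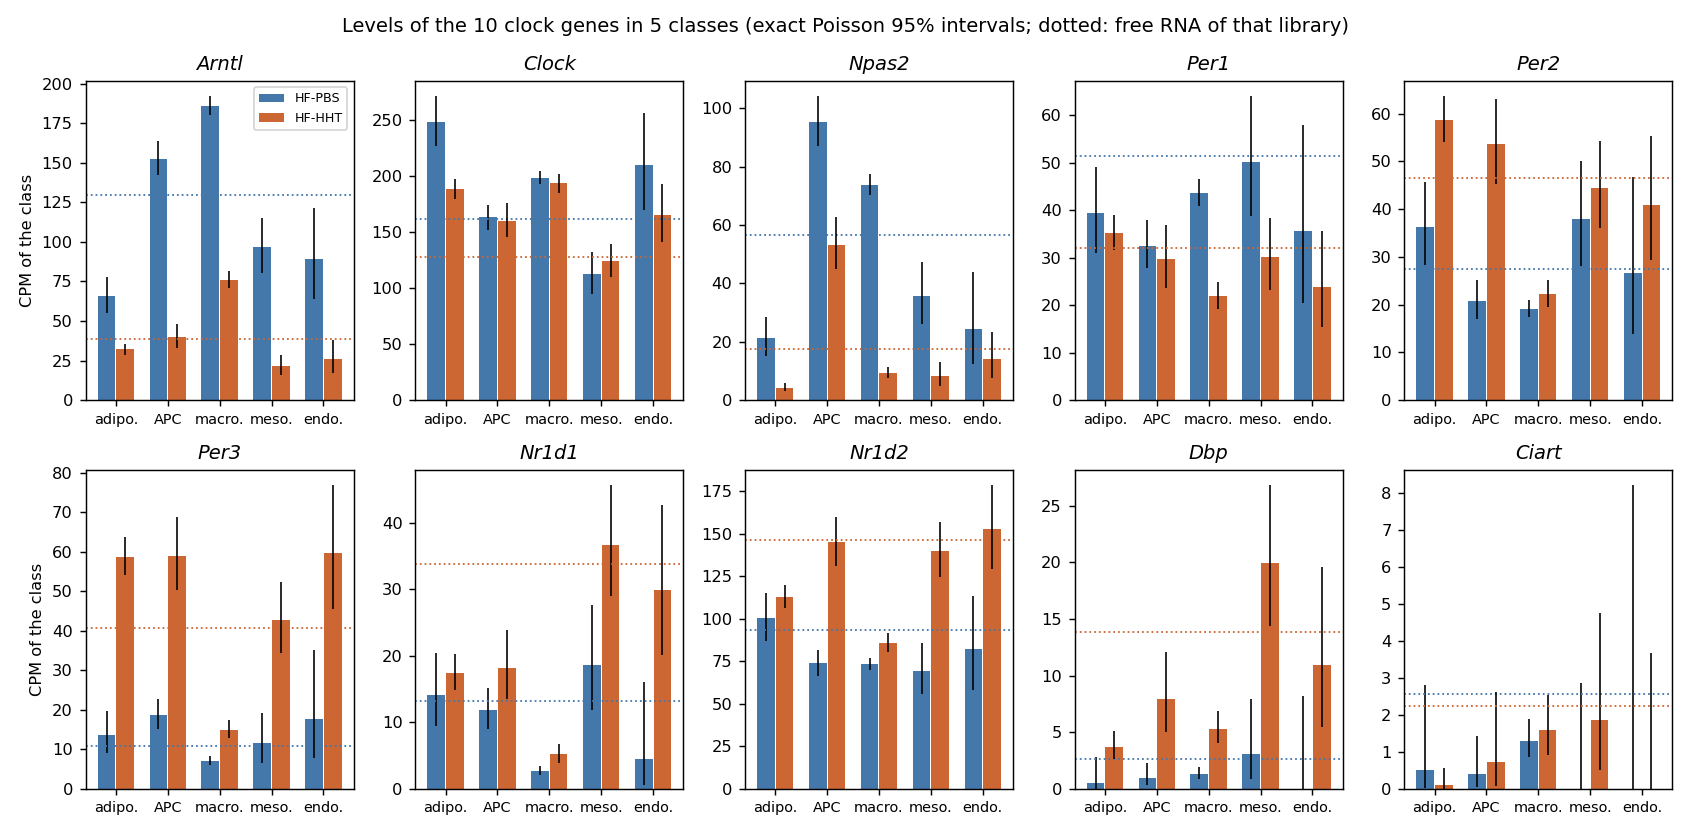
Bars give the level of each clock gene in CPM of its class for adipocyte-like (adipo.), APC-like, macrophage-like (macro.), mesothelial-like (meso.) and endothelial-like (endo.) nuclei, with exact Poisson 95% intervals, and dotted lines give the CPM of the gene in free RNA of the same library. Vertical scales differ between panels, and Arntl in HF-PBS runs from 65.5 CPM in adipocyte-like to 186 CPM in macrophage-like nuclei.

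Levels differed between classes before any comparison of libraries. In HF-PBS, Arntl ran from 216 CPM (193 to 243) in T/NK-like nuclei through dividing, macrophage-like, APC-like, B cell-like, mesothelial-like, endothelial-like, dendritic-like and adipocyte-like nuclei to 54.3 CPM (23.4 to 107) in perivascular-like nuclei, and in 8 of the 9 neighbouring pairs the intervals overlapped. Clock had another order, from 248 CPM (227 to 271) in adipocyte-like nuclei to 88.2 CPM (47.0 to 151) in perivascular-like nuclei, again with 8 of 9 pairs overlapping. Adipocyte-like nuclei thus stood first for Clock and next to last for Arntl. In HF-HHT, T/NK-like nuclei were again first for Arntl, at 155 CPM, and mesothelial-like nuclei, at 21.3 CPM, lay below adipocyte-like nuclei, at 32.0 CPM. Of the target genes, Per3 was led in HF-PBS by APC-like, endothelial-like and adipocyte-like nuclei, with all 9 neighbouring pairs overlapping, and Nr1d1 and Nr1d2 by perivascular-like nuclei, on 4 and 21 UMIs.

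Counted by class, the members stood as follows beside all genes measured. In adipocyte-like nuclei 3 of 9 measured members were at least 1.5-fold higher (Per2, Per3 and Dbp), where 35.9% of the 12572 genes measured were, and 2 were at least 1.5-fold lower (Arntl and Npas2), where 12.5% of genes were. In APC-like nuclei 5 of 9 members were higher, where 22.9% of genes were, and 2 were lower, where 8.19% of genes were. In macrophage-like nuclei 3 of 10 members were higher, where 25.9% of genes were, and 3 were lower, where 8.48% of genes were. In mesothelial-like nuclei 4 of 9 members were higher against 23.3% of genes, and 3 were lower against 12.8%. In endothelial-like nuclei 4 of 8 members were higher against 23.2% of genes, and 2 were lower against 9.86%. Since the genes were chosen on this contrast, nothing is read from these counts. The median gene was higher in HF-HHT by 0.32 in adipocyte-like, 0.17 in APC-like, 0.17 in macrophage-like and 0.11 in endothelial-like nuclei on the log2 scale, so a ratio near those values is a ratio near the median.

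The balance of the arms needs no scaling between libraries, since it is the share of Arntl, Clock and Npas2 in the UMIs of the 10 genes within 1 class of 1 library. It gives most weight to the genes with most UMIs, which differ between classes and libraries, with Clock first in each of the 3 classes that follow. In APC-like nuclei the share was 72.1% (70.4 to 73.7) in HF-PBS against 44.6% (42.1 to 47.1) in HF-HHT. In adipocyte-like nuclei it was 62.1% (59.1 to 65.0) and 43.9% (42.5 to 45.3). In macrophage-like nuclei it was 75.5% (74.8 to 76.2) and 64.0% (62.6 to 65.4). The target arm thus held the greater part of clock UMIs in HF-HHT in the first 2 of these classes, and the activator arm in the third. Mesothelial-like nuclei, at 56.1% and 32.7%, and endothelial-like nuclei, at 65.9% and 39.2%, resembled the first 2. T/NK-like nuclei, at 76.9% (73.6 to 80.1) and 73.5% (69.0 to 77.7), and B cell-like nuclei, at 69.6% and 67.6%, had overlapping intervals. Taken apart, the sum of the activator arm had a log2 ratio of -0.70 in APC-like, -0.58 in adipocyte-like and -0.72 in macrophage-like nuclei, and the sum of the target arm one of 0.98, 0.49 and 0.08, the last of which turned to -0.071 with TMM scaling and -0.087 with median-of-ratios scaling.

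**Figure D2:**
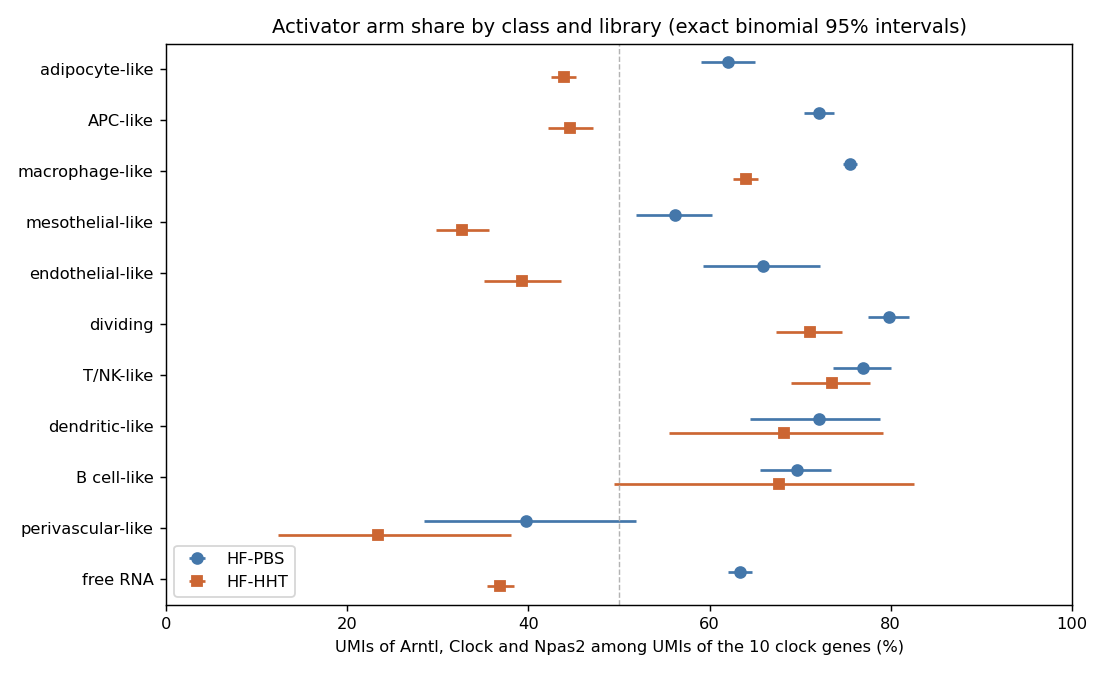
Points give the percent of clock gene UMIs that belong to Arntl, Clock and Npas2 in each class and in free RNA, in HF-PBS (circles) and HF-HHT (squares), with exact binomial 95% intervals. In adipocyte-like, APC-like, mesothelial-like and endothelial-like nuclei the HF-PBS point lies above 50% and the HF-HHT point below it, and in T/NK-like, dendritic-like and B cell-like nuclei the intervals overlap.

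The same balance was seen one nucleus at a time, among nuclei with at least 3 clock UMIs. Of 446 such APC-like nuclei in HF-PBS, 75.8% held more activator than target UMIs, and of 246 in HF-HHT 38.6% did. Of 129 and 675 adipocyte-like nuclei the shares were 67.4% and 35.6%. Of 1793 and 677 macrophage-like nuclei they were 80.0% and 64.5%, and of 91 and 149 mesothelial-like nuclei 52.7% and 23.5%. In T/NK-like nuclei the share was 90.0% in both libraries, of 70 and 40 nuclei, and in dividing nuclei it was 85.5% and 84.2%, of 166 and 95. The lower share in HF-HHT was thus seen over many nuclei of the first 4 classes. Nuclei of 1 library are not replicates, and depth differed between libraries, with medians of 5809 and 3353 UMIs in APC-like and 13114 and 11562 in adipocyte-like nuclei.

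**Figure D3:**
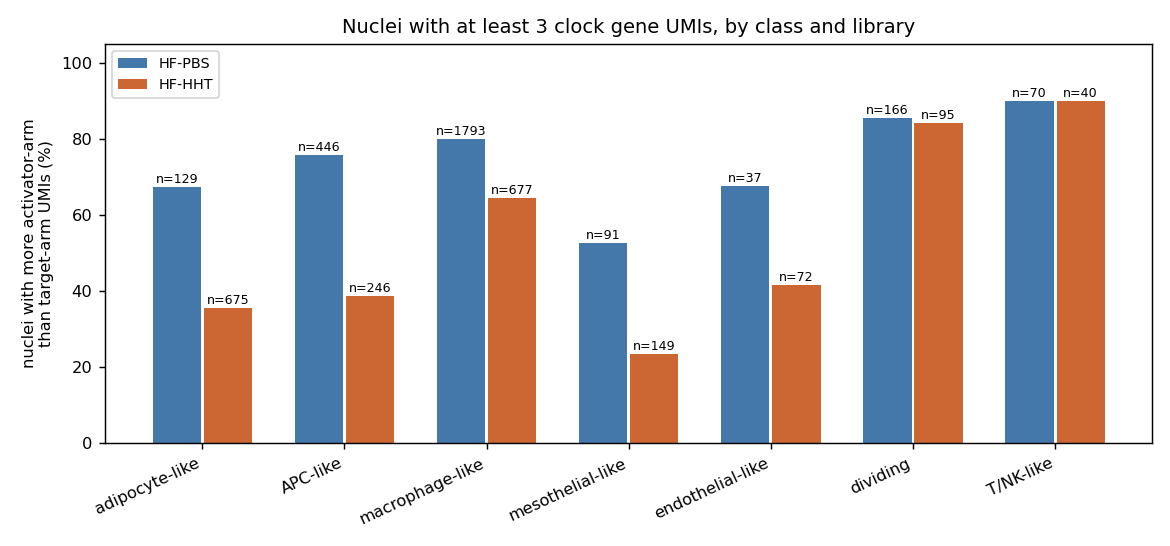
Bars give the percent of nuclei with more UMIs of the activator arm than of the target arm, among nuclei with at least 3 clock gene UMIs, by class and library, with the number of such nuclei (n) above each bar. The HF-HHT bar is lower in adipocyte-like, APC-like, macrophage-like, mesothelial-like and endothelial-like nuclei and level with HF-PBS, at 90.0%, in T/NK-like nuclei. In dividing nuclei the bars stand close, at 85.5% in HF-PBS and 84.2% in HF-HHT.

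Nuclei with at least 1 UMI of a gene were also counted after thinning to 3000 UMIs. Wherever thinning was used, nuclei with fewer than 3000 UMIs were left out, while unthinned shares cover all nuclei of the class. Arntl was found in 30.2% of 639 APC-like nuclei in HF-PBS against 10.2% of 381 in HF-HHT (49.9% of 751 and 11.7% of 669 unthinned). In macrophage-like nuclei the thinned shares were 34.7% of 3013 and 16.4% of 1563 (46.4% and 21.6% unthinned). Per3 was found in 5.44% of 147 adipocyte-like nuclei of HF-PBS and in 16.4% of 824 of HF-HHT (15.7% and 40.8% unthinned). Both genes thus differed in how many nuclei showed them. No class is known to lack clock genes, and the erythroid-like nuclei of HF-HHT, with a median of 2105.5 UMIs, held a UMI of Arntl in 1.75% and of Per3 in 2.63% of 114 nuclei before thinning, and in 0% and 3.33% of 30 nuclei after it.

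Finer clustering, at resolution 1.0, split the macrophage-like class. Clusters 0, 1, 2 and 13 kept macrophage markers and clusters 8 and 9 were monocyte-like, and the monocyte-like part was larger in HF-HHT, where cluster 8 held 18.0% and cluster 9 held 17.3% of the class's nuclei against 6.01% and 4.07% in HF-PBS. Arntl was lower in HF-HHT in all 6 clusters, from -0.72 (-1.20 to -0.23) in cluster 8 to -2.72 (-3.13 to -2.33) in cluster 13, which is led by Cd209b, Cd163 and Lyve1. Cluster 13 also had the highest ratio of Nr1d2, 1.33 (0.91 to 1.76), among the 6 clusters. Its ratio of Per3, 2.88 (1.63 to 4.41) on 6 and 40 UMIs, was the highest among those of the clusters where Per3 was measured. Per3 reached the minimum of 20 UMIs in cluster 13 through HF-HHT alone. It was not measured in clusters 8 and 9, where its ratios were -0.49 on 5 and 6 UMIs and -0.50 on 7 and 12 UMIs. The activator share of cluster 13 was 82.7% in HF-PBS against 49.3% in HF-HHT. In the monocyte-like cluster 9 that share was, in contrast, higher in HF-HHT, at 73.3% (69.9 to 76.5) against 62.3% (57.7 to 66.8). In cluster 8 it was 75.4% (71.2 to 79.3) against 69.1% (63.9 to 74.0), with intervals that overlapped. Nr1d1 had a ratio of 1.97 (0.61 to 3.43) in cluster 0 and of -2.18 (-3.63 to -0.86) in cluster 9, on 8 and 14 UMIs in the first and 15 and 8 in the second. In the adipocyte-like class, cluster 6 held 131 and 611 nuclei and cluster 16, led by Cyp2e1 and Adrb3, held 22 and 232. Per3 was higher in both, with intervals of 1.38 to 2.61 on 25 and 427 UMIs and 1.08 to 6.01 on 2 and 156 UMIs. In cluster 16 Per3 reached the minimum of 20 UMIs through HF-HHT alone, so a higher ratio there was favoured by the filter. Arntl was at -1.12 (-1.45 to -0.80) in cluster 6 and at -0.38 (-1.34 to 0.73) in cluster 16. Npas2 was measured in cluster 6 alone, at -2.26 (-3.00 to -1.53). In the APC-like class, Arntl was at -1.79 in cluster 3, at -1.87 in cluster 12, led in part by Pi16, and at -2.41 in cluster 20, led by C7.

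**Figure D4:**
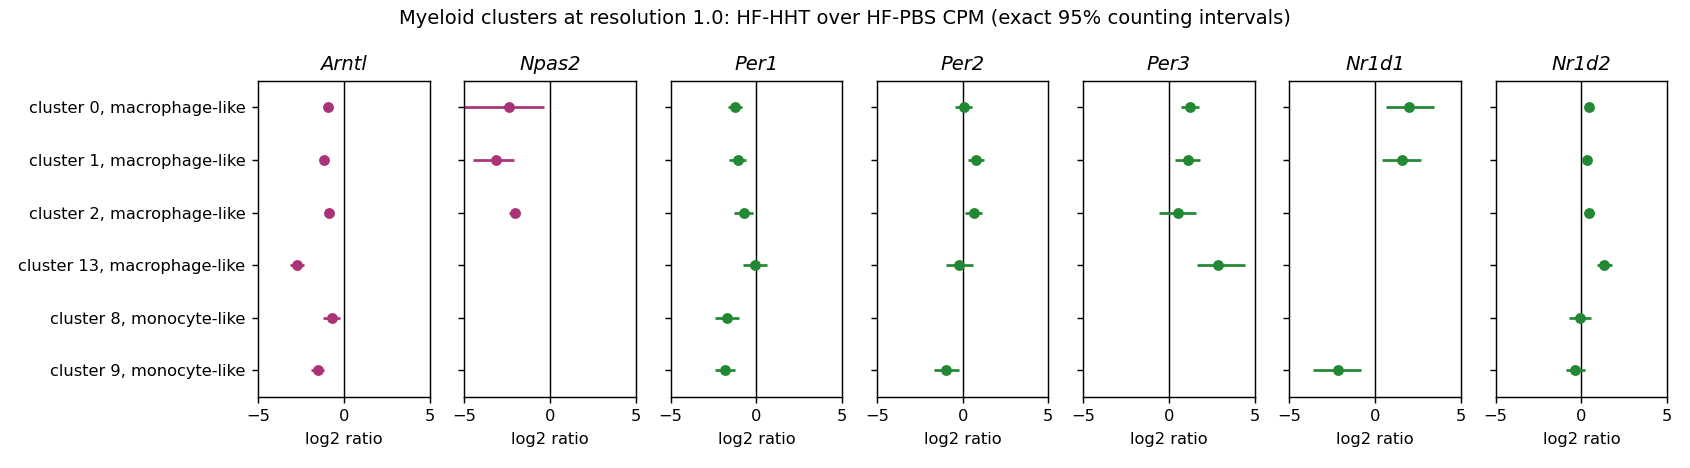
Points give log2 ratios of CPM in HF-HHT over HF-PBS with exact 95% counting intervals for 7 clock genes in the 6 finer clusters of the macrophage-like class, where a gene has at least 20 UMIs over both libraries. Arntl lies left of 0 in all 6 clusters, and Nr1d1 lies right of 0 in clusters 0 and 1 and left of 0 in cluster 9.

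Free RNA, the RNA of barcodes ranked 45000 to 90000 by UMIs taken to hold no nuclei, differed between the libraries as well. Arntl stood at 129.7 CPM in the free RNA of HF-PBS and 38.6 CPM in that of HF-HHT, Npas2 at 56.5 and 17.7 CPM, Per3 at 10.8 and 40.7 CPM and Dbp at 2.67 and 13.8 CPM. The activator share of free RNA was 63.4% and 36.9%. Dbp in APC-like, macrophage-like and adipocyte-like nuclei, at 7.97, 5.30 and 3.72 CPM in HF-HHT, lay below its level in free RNA, and how much of it there is background was not tested. In mesothelial-like nuclei, at 19.9 CPM, it lay above. Arntl and Npas2 in adipocyte-like nuclei lay below their free RNA levels in both libraries, whereas Per3 in APC-like and adipocyte-like nuclei lay above its level in both. In macrophage-like nuclei all 7 target genes lay below their free RNA levels in both libraries. So did Nr1d1 and Nr1d2 in APC-like nuclei, with free RNA at 13.1 and 33.7 CPM for Nr1d1 and at 93.1 and 146 CPM for Nr1d2. When free RNA amounting to 10% of each class was subtracted, the ratios of Arntl were -1.95 in APC-like, -1.27 in macrophage-like and -0.90 in adipocyte-like nuclei, and those of Per3 were 1.64, 0.86 and 2.12. The 10 macrophage markers summed to 1611 CPM in adipocyte-like nuclei of HF-PBS and 184 CPM in those of HF-HHT, with 0 of the 10 at 0 in either, and to 5551 and 1848 CPM in free RNA. Their part in the lower Arntl and Npas2 of adipocyte-like nuclei was not tested.

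The other genes of the clock were taken from lists of 10 feedback regulators, 15 modifiers and cofactors and 8 output genes. Of the feedback regulators, 4 of 9 measured in APC-like nuclei were at least 1.5-fold higher, where 22.9% of all genes measured were. In the same class 1 was lower, where 8.19% of genes were, and the median log2 ratio of the list was 0.30. Hlf and Tef, the relatives of Dbp that bind the same D-box, led this list. Hlf had 3.94 CPM (20 UMIs) in HF-PBS against 62.7 CPM (173 UMIs) in HF-HHT, a log2 ratio of 3.99 (3.32 to 4.74). Tef had 37.2 and 113 CPM, a log2 ratio of 1.60 (1.33 to 1.87). Unlike Dbp, Hlf in APC-like nuclei of HF-HHT lay above its free RNA level of 15.9 CPM. Nfil3, the repressor that competes with these factors for the D-box, was lower, with 20.1 and 6.52 CPM and a ratio of -1.62 (-2.43 to -0.89). Nfil3 was lower in adipocyte-like nuclei too, at -1.82 (-2.43 to -1.21).

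In adipocyte-like nuclei 5 of 9 feedback regulators were higher, where 35.9% of all genes measured were, and 2 were lower, where 12.5% were. Their median was 0.90 where the median gene stood at 0.32. The highest ratios were those of Bhlhe41, 2.17 (0.23 to 5.26), on 2 and 45 UMIs, and Bhlhe40, 1.48 (-0.50 to 4.60), on 2 and 28 UMIs, both repressors at E-boxes. Hlf, at 0 and 36 UMIs, was 2.40-fold higher against a floor of 3 counts in HF-PBS. All 3 lay below their free RNA levels. Cry2, the partner of the Per proteins, was lower, with 153 and 90.9 CPM and a ratio of -0.75 (-0.94 to -0.56). In macrophage-like nuclei 2 of 8 were higher, Hlf on 7 and 17 UMIs and Cry1 at 0.63 (0.40 to 0.85), and 0 were lower. Of all genes measured in that class, 25.9% were higher and 8.48% were lower. Rora, named after its values were seen, activates Arntl through the RORE. It had 883 and 2167 CPM in APC-like nuclei, a ratio of 1.29 (1.24 to 1.35), and 687 and 1397 CPM in adipocyte-like nuclei, a ratio of 1.02 (0.94 to 1.10).

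The modifiers and cofactors, which set the stability and activity of the clock proteins, mostly stayed within 1.5-fold, in 13 of 14 genes measured in APC-like, 11 of 14 in adipocyte-like and 14 of 15 in macrophage-like nuclei. The exceptions were Csnk1e, a kinase of the Per proteins, at 0.61 in APC-like nuclei, Timeless at 1.41 in macrophage-like nuclei, and Fbxl21 at 2.58, Ncor1 at 0.64 and Fbxw11 at -0.69 in adipocyte-like nuclei. Relative to the median gene, at 0.17 in APC-like and 0.32 in adipocyte-like nuclei, Csnk1e and Ncor1 were within 1.5-fold. Ncor1 is the corepressor through which REV-ERB proteins act. Of the 8 output genes, 4 were lower and 1 higher in adipocyte-like nuclei, 3 lower and 2 higher in macrophage-like nuclei, and 1 lower and 2 higher in APC-like nuclei. Of all genes measured, 12.5% were lower and 35.9% higher in adipocyte-like nuclei. The shares were 8.48% and 25.9% in macrophage-like and 8.19% and 22.9% in APC-like nuclei. Nothing is read from the counts of either list, or from those of the feedback regulators. Tsc22d3, a gene that also responds to glucocorticoids, was lower in all 3, from 1218 to 228 CPM in adipocyte-like nuclei (-2.42), from 129 to 45.7 CPM in APC-like nuclei (-1.50) and from 212 to 103 CPM in macrophage-like nuclei (-1.05). Cdkn1a, a cell cycle inhibitor, was at -3.02 (-3.51 to -2.54) in adipocyte-like nuclei. Wee1, a kinase that delays mitosis, was at -1.28 and Nampt, which makes a precursor of NAD, at 1.23 in macrophage-like nuclei. Usp2, a ubiquitin protease with a strong daily rhythm, was at 1.11 in macrophage-like and 1.12 in APC-like nuclei, where Por was at 1.01. Lonrf3 was at 0.76 (-0.72 to 2.72) in adipocyte-like nuclei. Of the 8 output genes, Tsc22d3 was the only one past 1.5-fold in the same direction in all 3 classes.

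Over the 4 classes in which Arntl and Dbp were both measured (adipocyte-like, APC-like, macrophage-like and mesothelial-like), the pattern of log2 ratios, each less the median of its class, was compared over 9480 genes. The genes nearest to Arntl by root mean square difference were Frmd4a at 0.30, Cacna1c at 0.36, Wfs1 at 0.42, Itgax at 0.43 and Klhl29 at 0.45. Those nearest to Dbp were Grip1 at 0.39, Nnat at 0.51, Irgm1 at 0.53, G0s2 at 0.58 and Upk3b at 0.66. None of these 10 genes is in the clock lists used here. The likeness rests on 4 values per gene from 1 pair of libraries.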

How the data were processed

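Nuclei of frozen epididymal WAT were profiled in 2 libraries, 1 for each condition, both from tissue pooled over 3 mice. Alignment and counting were done by the authors with Cell Ranger 5.0.0 (named in the submitters' processing notes) against mm10, and the deposited values are raw UMI counts for every barcode, with no normalization. The sources used here do not say if intronic reads entered the counts.

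Nuclei were called by depth (3000 expected) and then by comparing barcodes of 500 or more UMIs with free RNA (10000 simulations, false discovery rate 0.01), which left 7745 barcodes for HF-PBS against 7607 for HF-HHT. Scrublet (scanpy 1.11.5) ranked likely doublets, and the top 480 and 463 were dropped, at 0.8% per 1000 nuclei. This stands in for the study's own doublet caller. The limits of the study followed: over 400 genes, UMIs and genes under the 95th percentile, and mitochondrial UMIs under 0.5%. Libraries were integrated in Seurat 5.3.0 (2000 variable features, 30 dimensions) with the clock genes left out of the features, at the lowest resolution that gave 14 clusters. Classes were rebuilt from markers and are not the authors' annotation.

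UMIs were summed per class and library and divided by the class total. Intervals are exact (conditional binomial for ratios, Poisson for CPM, Clopper-Pearson for shares, 95%) and cover counting error only. Those of ratios were run on data simulated with counting error alone, which cannot speak to spread between mice or libraries. A count of 0 was replaced by a floor of 3 counts in the library to give a fold, which leaves out the counting error of the other library. Identifiers of 99.845% of 32285 genes were found in GENCODE vM21 (GRCm38). The alternatives used edgeR 4.0.16 (TMM factors) and DESeq2 1.42.0 (size factors) for scaling only. The members and lists were chosen with earlier results of these data known. Named genes were the 10 members, up to 4 genes past 1.5-fold per list and class (the 2 highest and 2 lowest), and the 5 genes nearest to Arntl and to Dbp, predicted genes left out. Rora, the genes overlapping members and the leading genes of clusters were named outside this rule.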

Additional observations from a re-analysis of the deposited data

Results flagged for a closer look

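In the monocyte-like cluster 9 of the finer clustering, Nr1d1 had a log2 ratio of HF-HHT over HF-PBS of -2.18 and Per2 one of -0.96, each at least 1.5-fold lower with an interval below 0. Among the other finer clusters, Nr1d1 was higher to that extent in 3 (macrophage-like 0 and 1 and mesothelial-like 10) and Per2 in 4 (macrophage-like 1 and 2 and APC-like 3 and 12). The difference between clusters was not tested, since each ratio sets 1 library against 1 library. Cluster 9 held 147 and 388 nuclei of the libraries.

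Clock genes were also counted in classes that occurred in HF-HHT alone and so enter no comparison. The activator arm made up 68.0% (66.0 to 69.9) of clock UMIs in the 690 epithelial-like nuclei, where Npas2 had its highest level of any class, 232 CPM. It made up 38.1% (33.4 to 42.9) in the 121 multiciliated epithelial-like nuclei and 45.0% (23.1 to 68.5) in the 114 erythroid-like nuclei, the last on 20 UMIs.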

How the results depend on the processing

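No paired analysis was possible because each condition has 1 library. With 1 library a condition and an unknown hour of collection, treatment, pool and time of day cannot be told apart, and no alternative bears on that. Alternatives were run for adipocyte-like, APC-like and macrophage-like nuclei only, so member ratios in other classes have none. For arms, shares and gene counts, 74 values stayed within their interval (gene counts within 1.5 times) and 34 moved further. For single members, 257 stayed and 22 moved, and 0 called values changed sign. The cause of the moves below was not tested. The activator arm moved with TMM, median-of-ratios scaling and the median of the members to -0.85, -0.87 and -1.03 in adipocyte-like, -0.85, -0.86 and -0.84 in APC-like and -0.87, -0.88 and -1.29 in macrophage-like nuclei. The target arm moved with both scalings to 0.22 and 0.19 in adipocyte-like, 0.83 and 0.82 in APC-like and -0.071 and -0.087 in macrophage-like nuclei, and with the median of the members to 1.17 and 0.28 in the last 2. In macrophage-like nuclei, clustering at resolution 1.0 gave -0.64 and 0.41 for the arms, finer clusters mixed as in HF-PBS (chosen after seeing the data) -0.64 and 0.24, no upper limits -0.78 for the activator arm, and subtracting free RNA -0.039 for the target arm. The activator share of HF-PBS became 66.7% in adipocyte-like and 76.9% in macrophage-like nuclei with no upper limits, and 76.7% in the latter with free RNA subtracted, while that of HF-HHT macrophage-like nuclei became 60.6% at resolution 1.0 and 67.5% with free RNA subtracted. With no minimum on UMIs, genes past 1.5-fold numbered 9695 higher and 3133 lower in adipocyte-like (4519 and 1566 with it), 6620 and 3453 in APC-like (2784 and 997) and 7414 and 4044 in macrophage-like nuclei (3720 and 1220). Dbp in adipocyte-like nuclei gave no value after thinning to 3000 UMIs, since HF-PBS was at 0.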
